A study of Drosophila melanogaster with 4 samples.

Results

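Male germ cells of the 8- to 20-h Drosophila melanogaster embryo were placed in order by the RNA of a trio of germline ribosomal protein genes, and the top and the bottom of that order were compared across all other genes. Germ cells were taken as the cells with at least 8 UMIs (unique molecular identifiers, each standing for 1 captured RNA molecule) of nos, vas, pgc, zpg, aub, AGO3, gcl, ovo, and tej together and at least 5 such UMIs per 10000. Of the 12569 cells in the library, 4191 met both limits, and 1910 of these had a ratio of X-linked to autosomal UMIs of at most 0.165 and were taken as male. The score was the sum of RpS19b, RpL22-like, and RpS10a UMIs per 10000, and the 636 cells with the highest scores (the advanced group) were compared with the 636 cells with the lowest (the early group), while 638 cells lay between them (the middle group). Both the cells and their order were thus chosen by measured values, and the levels of these 12 genes are given only as a description.

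The embryos carried a vas-GFP transgene on both large autosomes, which marks germ cells from the vas gene, and no mutant or treated group was part of the library. GFP-positive germ cells were sorted from the 8- to 12-h collection, and gonads were sorted from the 12- to 20-h collection and dissociated with trypsin and collagenase, so that somatic gonadal precursors (SGPs) came along. Cells of both collections were pooled before droplet capture, and the collection a cell came from was not recorded in the files. There was 1 library, so that cells are not replicates, no test was run, and every interval below is an exact 95% interval that covers counting error only.

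In the fly, primordial germ cells form at the posterior pole with maternal RNAs, migrate through the midgut, and join the SGPs to make the gonad. Male germ cells resume division in the embryonic gonad under JAK-STAT signalling from the somatic cells, and the chromatin reader Phf7 belongs to the male germline program. Flies carry duplicated ribosomal protein genes of which 1 copy is used chiefly in the germline, and the ranking genes are such copies of RpS19a, RpL22, and RpS10b.

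The selected cells carried Y-linked RNA, which the rule did not use and which was scarce in the germ cells above the X limit. The 9 germline genes, together at or above the limits by the rule itself, had a median of 13.1 UMIs per 10000 in the advanced group. It was 13.7 in the middle and 13.8 in the early group. Y-linked genes gave 143, 135, and 105 UMIs in the advanced, middle, and early groups, whereas the 2281 germ cells above the X limit gave 19 in 50983293 UMIs. The pooled ratio of X-linked to autosomal UMIs was 0.135, 0.139, and 0.142 in the same order. At the limits, the highest ratio inside was 0.164878 and the lowest outside 0.165363, 118 germ cells lay within 0.01 of the limit, and 20 male cells had exactly 8 germline UMIs.

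Scores ran from 20.477 to 54.5 per 10000 in the advanced group, with a median of 24.9, and from 0 to 13.6147 in the early group, with a median of 10.4. The middle group spanned 13.6184 to 20.4572. All ranking genes moved with this order, as they had to. The median RpS19b level of a cell was 9.69 per 10000 in the advanced, 6.07 in the middle, and 3.29 in the early group, that of RpL22-like was 7.98, 5.30, and 2.89, and that of RpS10a was 7.43, 5.14, and 3.36. Across the 1910 cells the Spearman correlations between pairs of these genes were 0.476, 0.469, and 0.482, values that share each cell's total and are only descriptive. Among the cells taken as male germ cells by the same rule in the 0- to 8-h library, the median score was 1.48, although the X limit did not part the sexes there, since 50.6% of those germ cells had a ratio between 0.15 and 0.18, against 5.30% at 8 to 20 h. The 0- to 8-h library came from an earlier study of the same authors. Age and library therefore cannot be told apart in any value set beside it, here and below. Whether the score follows the age of a cell was not tested.

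Depth and RNA makeup also moved along the order. The median cell held 25439.5 UMIs in the advanced, 22732 in the middle, and 21391 in the early group, and the Spearman correlation between score and depth was 0.223. The 636 advanced cells held 16195511 UMIs and the 636 early cells 13501955. Mitochondrial RNAs took 0.900%, 1.06%, and 1.22% of the UMIs from advanced to early, and the cells called doublets by Scrublet made up 5.35%, 6.11%, and 7.39%. Exact binomial intervals of the doublet shares were 3.73 to 7.39% in the advanced and 5.48 to 9.71% in the early group. Such intervals over the cells of 1 library, here and below, cover counting error only, and the difference was not tested. Levels are therefore given as CPM, the UMIs of a gene in 1000000 UMIs of the group, a scale that allows no comparison of total RNA per cell. The part of depth in the results below was not tested on its own. The thinning given with the counts also ranked the cells anew, while the thinned shares of cells with Phf7 or Jabba kept the groups.

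A total of 6157 genes with at least 200 UMIs in both groups together were compared, while 7779 had fewer. The median log2 ratio of the advanced to the early group was -0.09, and the middle 90% of genes ran from -1.21 to 0.61. By a size of at least 2-fold, 94 genes were higher in the advanced group, which is 1.53% of those compared, and 424 were lower, which is 6.89%. Relative to the median gene, the numbers were 118 higher and 359 lower. The higher and lower genes differed in how they were spread over cells. For 133 of the lower genes, but for 0 of the higher genes, 10 cells of the group with the higher level held 25% or more of the gene's UMIs. Of the 5993 genes not concentrated in this way, 291, or 4.86%, were at least 2-fold lower. In the middle group, which took no part in the ratio, the level lay between those of the outer groups for 94 of the 94 higher and 412 of the 424 lower genes, against 70.9% of all genes compared. The middle group was cut from the same ranking, and these genes were picked for a wide gap between its ends. A level in between was thus likely in advance, and these counts are only a description. The counts changed with the setting. With each cell thinned to 5000 UMIs and ranked anew by its thinned score, 18 genes were higher and 85 lower among the 3550 that could be compared. Depth, groups, and genes compared changed together there, so that the part of depth alone was not tested. With the lowest 10% of cells left out the lower genes numbered 281. Ranking by RpS19b, RpL22-like, or RpS10a alone gave 50, 51, and 44 higher genes.

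**Figure D1:**
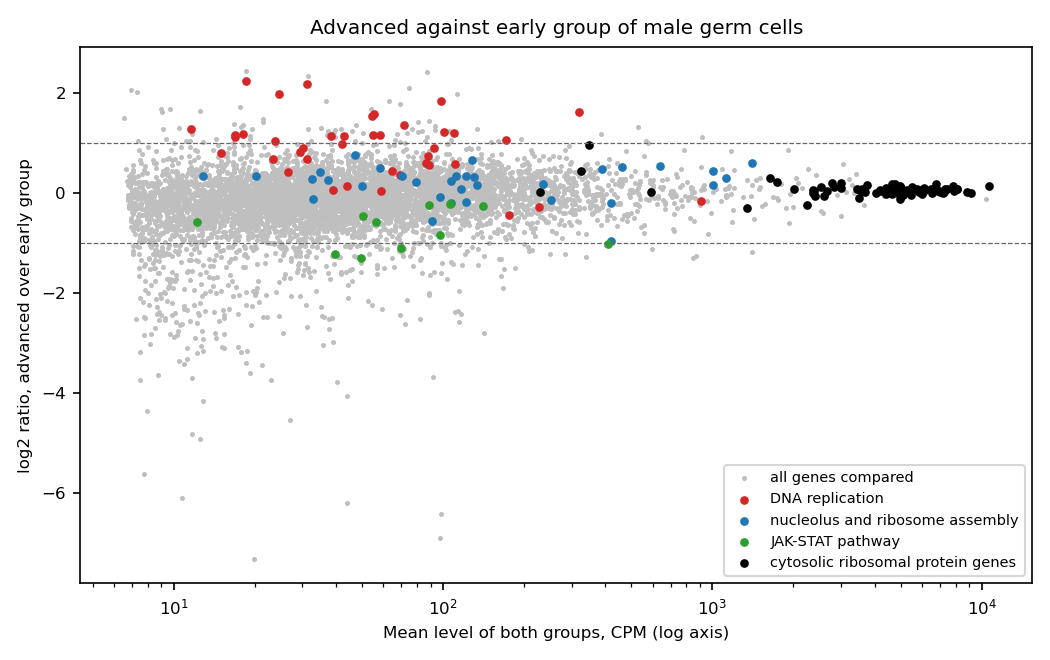
The plot sets the log2 ratio of the advanced to the early group against the mean level of both groups in CPM, with 1 point for each of the 6157 genes compared and dashed lines at 2-fold. DNA replication genes lie above most genes of their level, ribosomal protein genes form a flat group at high level, and JAK-STAT genes lie below 0.

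DNA replication genes made up the largest block of higher genes among the lists examined. Of the 40 listed genes compared, 20 were at least 2-fold higher and 0 lower, with a median log2 ratio of 1.01 against -0.09 over all genes compared. These genes covered the supply of DNA precursors, the polymerases, and the loading of the replication fork. Ribonucleotide reductase, which makes deoxyribonucleotides, has a large subunit, RnrL, that stood at 11.3 CPM in the early, 25.3 in the middle, and 51.3 in the advanced group, a log2 ratio of 2.19 (1.94 to 2.45). Its small subunit, RnrS, stood at 42.9, 77.2, and 153 CPM. Thymidylate synthase, Ts, had a log2 ratio of 2.34 (2.08 to 2.60), from 10.4 to 52.7 CPM. RnrL, RnrS, and Ts were thus several times higher at the top of the order.

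PCNA, the sliding clamp that holds DNA polymerases on their template, stood at 156 CPM in the early, 239 in the middle, and 484 in the advanced group, a log2 ratio of 1.63 (1.56 to 1.70). DNApol-alpha60, the large primase subunit, went from 9.92 to 39.2 CPM, and DNApol-epsilon58, an accessory subunit of polymerase epsilon, from 6.44 to 30.6. The initiation factor dup, the fly Cdt1, went from 27.8 to 81.5 CPM, a log2 ratio of 1.55 (1.38 to 1.72). Not all of the list moved this way. E2f1, the transcription factor that drives many S-phase genes, was at 202 CPM in the early and 149 in the advanced group, a log2 ratio of -0.44. For PCNA a high level was not limited to the top of the order. The 0- to 8-h germ cells within the X limit (low-X) held it at 549 CPM. They held RnrS at 40.9 and RnrL at 11.8 CPM, near the early group. In these low-X cells 29 of the 40 listed genes were above the early group. So were 52.1% of the 94 higher genes, against 45.0% of all genes compared.

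Read over 10 bins of the order, with 191 cells in each, the summed level of these genes was lowest in bin 3 and highest at the top. It was 3083 CPM in the lowest bin, 2797 in bin 3, 2953 in bin 5, 4286 in bin 8, and 4610 in the highest. RnrL stayed between 10.3 and 12.0 CPM over the lowest 4 bins and reached 50.7 in the highest. In contrast dUTPase, of the same list, was at 883 CPM in the lowest bin, 985 in bin 3, and 832 in the highest. PCNA was at 229.8 in the lowest bin, 121 in the next, and 587 in the highest. The lowest bin therefore stood above its neighbour for PCNA, a feature it shared with genes described further on.

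Upstream sequences of replication genes are shown because many carry the DNA replication-related element (DRE), the site named for such genes and bound by the factor Dref. The element was searched as TATCGATA, which reads the same on both strands, from 250 bases before to 50 after the annotated start of each gene. Of 38 replication genes with such a window, 12, or 31.6%, held it, against 18.0% of the 6108 windows of all genes compared and 15.2% of the 92 windows of the higher genes. The share was about the same, 31.8%, in the 85 windows of the ribosomal protein genes, whose median log2 ratio was 0.06, and 24.2% in the nucleolar genes. In the 419 windows of the lower genes it was 8.59%. The E2F site TTTCGCGC, read on both strands, was in 2 of the 38, or 5.26%, against 1 of the 92 higher genes and 1.20% of all windows. Dref itself had a log2 ratio of 0.68, with 37.9 CPM in the early and 60.8 in the advanced group. The 100 bases before the start of 4 polymerase and fork genes and of dhd follow, from the RefSeq sequence of the Release 6 plus ISO1 MT assembly, each printed in the direction of its gene with the element in capitals.
DNApol-alpha60 (chr3L:20361586-20361685, minus strand): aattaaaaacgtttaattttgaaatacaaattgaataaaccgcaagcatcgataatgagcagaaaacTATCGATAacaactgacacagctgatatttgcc
Psf1 (chr3L:1247678-1247777, minus strand): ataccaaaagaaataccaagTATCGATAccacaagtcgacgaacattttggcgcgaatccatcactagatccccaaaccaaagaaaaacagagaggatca
DNApol-alpha180 (chr3R:21671751-21671850, minus strand): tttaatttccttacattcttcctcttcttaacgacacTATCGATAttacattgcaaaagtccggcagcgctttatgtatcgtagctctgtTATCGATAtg
DNApol-alpha73 (chr3R:27239063-27239162, plus strand): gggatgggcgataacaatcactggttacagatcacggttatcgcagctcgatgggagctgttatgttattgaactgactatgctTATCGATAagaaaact
dhd (chrX:5312071-5312170, plus strand): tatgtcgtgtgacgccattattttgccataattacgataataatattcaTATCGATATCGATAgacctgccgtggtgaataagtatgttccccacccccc

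In these windows DNApol-alpha180 and dhd each hold 2 matches, which overlap in dhd. Psf1, a subunit of the GINS complex of the replication fork, had a log2 ratio of 1.23 (1.11 to 1.34). DNApol-alpha180, the catalytic subunit of polymerase alpha, had 1.15, and DNApol-alpha73, its regulatory subunit, had 0.90. A match is a description of the letters and no evidence of binding.

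Cell cycle regulators moved less than the replication genes. Of 37 mitosis genes compared, 2 were at least 2-fold higher and 1 lower, with a median log2 ratio of 0.31. The 2 higher genes were twe, a Cdc25 phosphatase known for meiosis, with 4.30 and 13.7 CPM in the early and advanced groups, and cid, the centromeric histone, with 10.1 and 25.9. The G1 cyclin CycE, which starts S phase, had a log2 ratio of 1.02 (0.89 to 1.16), from 45.5 to 92.5 CPM, and was the 1 gene of 13 G1 cyclins and partners that passed 2-fold upward. The 10 brakes on division that could be compared had a median of -0.05, with 0 past 2-fold in either direction. Replication genes, and not the division genes as a whole, thus held the high ratios.

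CycB was the mitosis gene that was lower, and its level came from few cells. It was at 231 CPM in the early, 87.6 in the middle, and 92.7 in the advanced group, a log2 ratio of -1.32. By bins, the lowest was at 570.2, the next at 121, and all others between 81.6 and 101, and 10 cells held 28.7% of its UMIs in the early group. Among the other lists, the germ plasm RNAs had 4 of 17 genes at least 2-fold lower and 0 higher, with a median of -0.52, and these included wun2, a lipid phosphatase of germ cell migration and survival, at 17.0 and 2.41 CPM in the early and advanced groups.

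**Figure D2:**
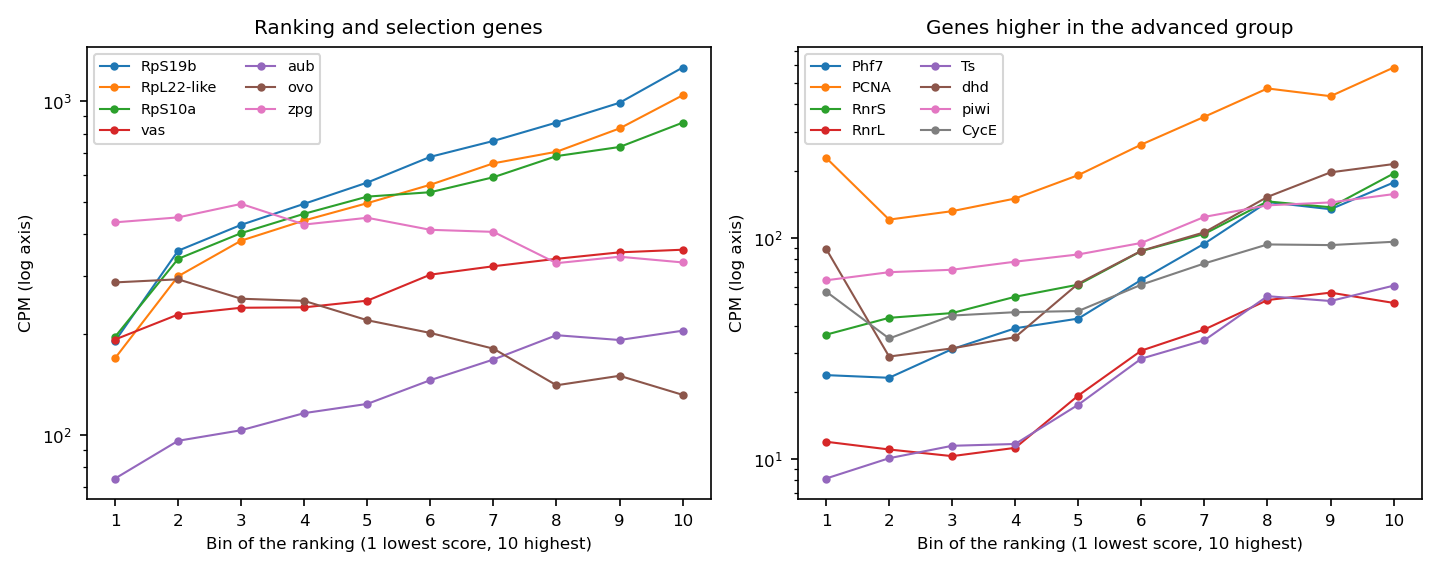
Levels in CPM on a log axis are plotted over the bins of the ranking, 191 cells each, for ranking and selection genes (left) and for genes higher in the advanced group (right). Phf7 runs from 23.9 in the lowest to 178 in the highest bin, RnrL is level over the lowest 4 bins and higher after them, and RnrS and Ts are higher in each of bins 2 to 4 than in the bin before.

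The ratio second only to that of CG10863, among all genes compared, was that of the male germline gene Phf7, which encodes a PHD-finger protein that reads histone methylation and promotes male germline identity. Its level was 27.4 CPM in the early, 59.2 in the middle, and 147 in the advanced group, a log2 ratio of 2.42 (2.26 to 2.58). It lies at chrX:20160355-20165830. Over bins it read 23.9, 23.3, 31.4, 39.0, 43.1, 64.5, 94.0, 145, 134, and 178 CPM. With every cell thinned to 5000 UMIs, 42.9% of 631 advanced cells had a Phf7 UMI (39.0 to 46.9%, exact binomial interval), and 12.2% of 613 early cells (9.75 to 15.1%). The share was 4.38% (3.12 to 5.97%) of the 867 equally thinned cells without any germline UMI, a set chosen for having 0 UMIs of the 9 germline genes, so that its share of a germline RNA is low by construction. Unthinned, the shares were 81.6% of advanced and 41.0% of early cells. Shares of germline RNAs in these cells, here and below, are therefore values side by side and no background level.

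Other male germline genes were mixed. Of the 14 listed, 3 were at least 2-fold higher and 1 lower, with a median of 0.29. Higher beside Phf7 were mamo, a zinc-finger gene needed in germ cells, at 8.15 and 27.0 CPM in the early and advanced groups, and piwi, a nuclear Piwi protein that silences transposons, at 69.5 and 144. The early differentiation genes bam and tut stood at 16.8 and 20.1 and at 14.5 and 21.7 CPM. CG12477 and CG18605, germline genes that the study follows, had log2 ratios of 0.57 and 0.47, with CG12477 at 168 and 250.1 and CG18605 at 246 and 339.7 CPM. Of the listed spermatocyte genes, 6 of 23 had enough UMIs, of which 1, twe, was at least 2-fold higher and 0 lower, with a median of -0.06. The summed level of all 23 was 187 CPM in the early and 174 in the advanced group, with bol, an RNA-binding protein of meiosis, at 112 and 81.3. Among genes too low to be compared, nht, a testis copy of a TFIID subunit, was at 2.00 and 7.53 CPM.

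The lower gene of this list was chinmo, a BTB factor that JAK-STAT signalling sustains in testis stem cells. It was at 548 CPM in the early, 382 in the middle, and 271 in the advanced group, a log2 ratio of -1.02 (-1.07 to -0.96), and went over the bins from 701 to 257. The other 10 JAK-STAT genes compared also had ratios below 0, and 4 of the 11 were at least 2-fold lower, with a median of -0.59. They included Socs36E, a target and inhibitor of the pathway, at 70.5 and 28.6 CPM in the early and advanced groups, and ken, a transcriptional repressor, at 55.8 and 23.8. Cells without germline UMIs held more of these RNAs, with chinmo at 2242, Socs36E at 493, and ken at 178 CPM, and the summed level of the SGP markers was 363 CPM in the early and 147 in the advanced group. The part of somatic RNA in these ratios was not tested.

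The piRNA pathway, which protects the germline from transposons, had 2 of 26 genes past 2-fold upward, piwi and moon, and 0 downward, with a median of 0.16. Moonshiner, encoded by moon, starts transcription at piRNA clusters and stood at 30.9 CPM in the early and 63.4 in the advanced group. Among the basal transcription paralogs, TfIIA-S-2, a copy of a TFIIA subunit, stood at 104 and 215 CPM, and Trf2, a relative of the TATA-binding protein, at 1229 and 694. The selection genes are given here as a description only, aub with 94.1 and 196 CPM in the early and advanced groups, and ovo with 276 and 144. The germline genes that chose the cells did not move as a block.

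Genes of female germline use were mostly near the background. Of 12 compared, 0 were at least 2-fold higher and 1, osk, was lower, at 19.7 and 3.33 CPM in the early and advanced groups, with a list median of -0.16. Among 14 sex determination genes, 0 were higher and 2 lower, dsx and ix. The dsx ratio of -2.50 stood on few cells, since 10 cells held 41.0% of its early UMIs, and dsx is a gene of the somatic gonad, at 149 CPM in the cells without germline UMIs against 15.7 in the early group.

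Most ribosomal protein genes did not share the course of the ranking genes. The 85 other genes compared were taken as cytosolic ribosomal protein genes by their symbols, RpL24-like among them. They had log2 ratios from -0.31, that of RpL24-like, to 0.96 with a median of 0.06, and 0 reached 2-fold in either direction. Together they made up 395882 CPM in the early and 411992 in the advanced group. The partners of the ranking genes stayed level or were lower: RpS19a was at 2359 and 2419.7 CPM in the early and advanced groups, RpS10b at 4867 and 4897, and RpL22 at 2421 and 2059, a log2 ratio of -0.23 (-0.26 to -0.21). In the summed RNA, the 3 ranking genes went from 977 CPM in the early to 2593 in the advanced group. Reads of near-identical copies may be divided between copies, so that levels of paralogs carry that doubt.

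Of the other copies in the list of germline ribosomal paralogs, RpL37b had the highest ratio. It was at 237 CPM in the early, 358 in the middle, and 461 in the advanced group, a log2 ratio of 0.96 (0.90 to 1.02), and ran from 159 in the lowest to 503 in the highest bin. The cells without germline UMIs held 19.0 CPM. In contrast RpS5b, the germline copy of RpS5a, was at 2318, 2367, and 2425 CPM, a log2 ratio of 0.07. RpL24-like was lower, with 1493 and 1206 CPM. Not every listed copy was particular to germ cells. RpL24-like stood at 746 CPM in the cells without germline UMIs. RpS14a stood at 2189 in those cells, against 1950 in the early and 2051 in the advanced group. Of the 11 listed copies, 4 (RpS28a, RpL10Aa, RpL7-like, and RpS28-like) had under 200 UMIs and were not compared. Of the listed copies compared, RpL37b alone thus came near 2-fold.

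Genes of the nucleolus, where ribosomes are assembled, were modestly higher as a group. Of 33 compared, 0 reached 2-fold in either direction and the median was 0.29, and their summed level was 8265 CPM in the early, 8505 in the middle, and 9931 in the advanced group. NHP2, a core protein of the particles that make pseudouridine in rRNA, went from 1114 to 1701 CPM, a log2 ratio of 0.61 (0.58 to 0.64). The highest ratio of the list was that of bys, a factor of the small subunit, at 0.76 (0.60 to 0.92), with 35.2 and 59.4 CPM in the early and advanced groups. Nopp140, a nucleolar scaffold protein, had 0.66, and nclb, a nucleolar chromatin protein of the germline, had 0.32. The lowest was Non1, a GTPase of large subunit assembly, at 556 and 287 CPM, a ratio of -0.95.

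The starts of nucleolar genes are shown because most held the E-box CACGTG, the site read by Myc and related factors, which is the same on both strands. It was in 25 of 33 windows, or 75.8%, against 5.04% of the 6108 windows, 10.9% of the higher genes, and 9.41% of the 85 ribosomal protein genes. Of its 27 matches, 23 lay at or after the start, with a median position of 30 bases. Of the network that reads this site, Myc itself stood at 578 CPM in the early and 609 in the advanced group, a log2 ratio of 0.07. Max, the partner that Myc needs to bind, had -0.84, from 134 to 74.8 CPM, and Mnt, which opposes Myc with Max, had -1.21, from 39.7 to 17.2. Motif 1, the site of the factor M1BP, was searched as GGTCACACT on both strands. It was in 24.2% of the nucleolar windows, 12.6% of all windows, 8.70% of the higher genes, and 3.34% of the lower genes. The 30 bases around the E-box, in capitals, follow from the same assembly in the direction of each gene.
bys (chrX:7901843-7901872, plus strand): gcgacgttgccaCACGTGcgaaaatgtgtt
Nopp140 (chr3L:21832780-21832809, plus strand): ataagtagaaaaCACGTGtgagtgcgcatt
NHP2 (chr3L:14802132-14802161, minus strand): ggtcacactgaaCACGTGtttcgaacaaaa
Nop56 (chr3R:22421023-22421052, minus strand): acttgaagtaagCACGTGggaaaacaactg
nop5 (chr2L:6918733-6918762, minus strand): agaccgaaggcaCACGTGcttgcacttcat
hoip (chr2L:9699807-9699836, plus strand): ctaacgctaacgCACGTGtttgaaagcgat

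These sites belong to genes of the small nucleolar particles and of subunit assembly. Nop56 and nop5, core proteins of the methylating particles, had log2 ratios of 0.55 and 0.52, and hoip, the fly counterpart of a protein that binds the kink-turn of their RNAs, had 0.43.

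**Figure D3:**
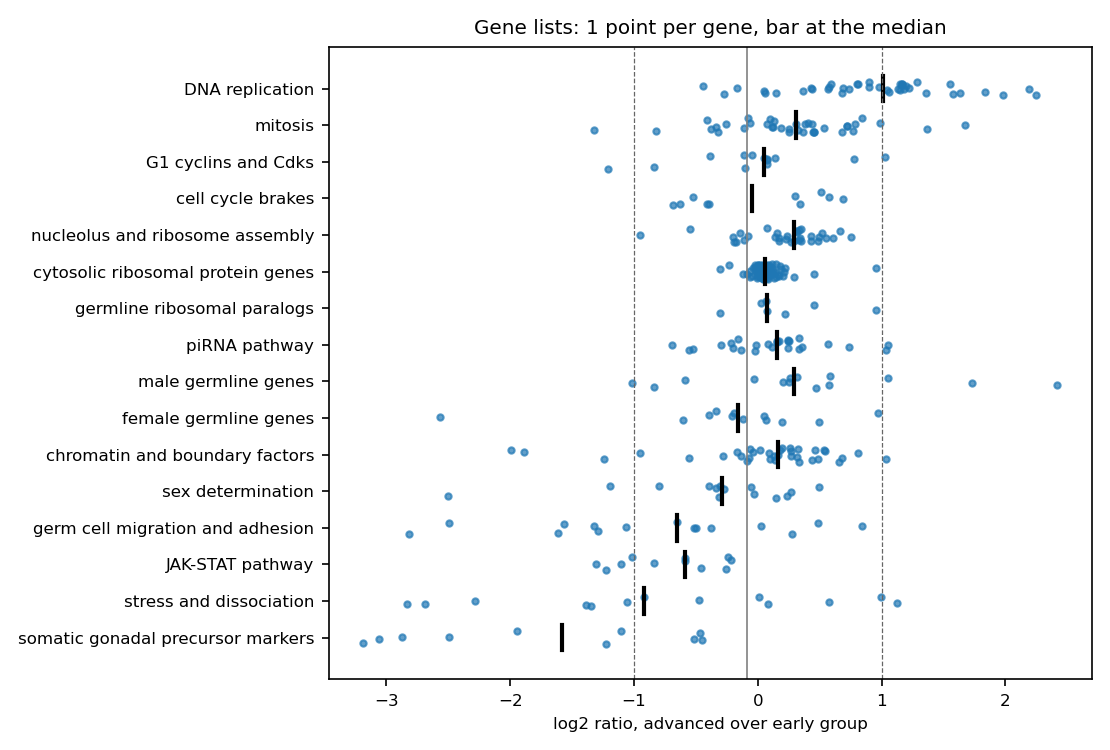
Each point is the log2 ratio of the advanced to the early group for 1 gene of a list, the black bar is the list median, the grey line the median of all genes compared, and the dashed lines mark 2-fold. The DNA replication median is 1.01, the nucleolar median 0.29, the ribosomal protein median 0.06, and the median of the somatic gonadal precursor markers -1.58.

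Several of the 20 highest ratios outside the lists belonged to X-linked genes. Deadhead, encoded by dhd, is a germline thioredoxin that acts on sperm chromatin in the egg, and its level was 45.6 CPM in the early, 73.7 in the middle, and 180.2 in the advanced group, a log2 ratio of 1.98 (1.86 to 2.11). It lies at chrX:5312171-5313125, next to CG15930 at chrX:5315130-5317295, whose level was 28.3, 56.9, and 121 CPM. SkpC, a member of the Skp family of ubiquitin ligase subunits, was at 31.4, 56.5, and 107. All were low in the cells without germline UMIs, at 5.97, 3.37, and 3.86 CPM. At 0 to 8 h, low-X germ cells held dhd at 147, CG15930 at 9.01, and SkpC at 4.78 CPM. Of the 94 higher genes, 26, or 27.7%, were X-linked, against 16.8% of all genes compared and 15.8% of the lower genes, while the pooled share of X-linked UMIs was itself lower in the advanced group.

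The highest ratio of all was that of CG10863, with 5.78 and 31.2 CPM in the early and advanced groups, a log2 ratio of 2.44 (2.09 to 2.80). It was not particular to germ cells, since the cells without germline UMIs held 29.0 CPM. The 20 highest ratios, down to PCNA at 1.63, also held WRNexo, ETH, CG44303, CG9752, CG10336, CG6324, and NANS beside the genes named above. The stress list was divided. Of 13 genes compared, 1 was at least 2-fold higher and 6 lower, with a median of -0.91. The heat shock genes Hsp26, Hsp27, and Hsp83 stood at 574 and 1249, at 386 and 769.7, and at 2441 and 3641 CPM in the early and advanced groups, whereas Hsp68 stood at 13.9 and 14.0, DnaJ-1 at 84.4 and 89.3, and Hsp23 at 163 and 117. The 6 lower genes were the cell death genes rpr and hid and the stress signalling genes Gadd45, puc, kay, and Jra.

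The lower genes were described by where else their RNA was found. Some of it was RNA of few cells. The 8 lowest ratios, from -7.32 to -4.82, were those of CG14110, CG9184, Tom, CG10591, ImpE2, CG15282, ImpL1, and Osi6, and for each of them 10 early cells held between 84.1% and 99.7% of the early UMIs. Tom, an inhibitor within the Notch pathway, was at 195 CPM in the early, 2.72 in the middle, and 2.28 in the advanced group. By bins it was at 689 in the lowest and at 9.36 in the next, and 23 cells of the lowest bin had at least 10 Tom UMIs, against 1 in the next and 0 in all others. These cells shared their bin with high CycB, hid, a cell death gene at 177 in the lowest and 13.4 in the next bin, and wun2, at 42.4 and 6.72. At 0 to 8 h, low-X germ cells held Tom at 609, CycB at 797, and wun2 at 66.2 CPM. The lowest bin had a median score of 6.18 and a median of 18883 UMIs per cell.

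Other lower genes had their highest level in the low-X germ cells of the 0- to 8-h library, which differs in age and preparation. Jabba, which anchors histones to lipid droplets, was at 170.3 CPM in the early, 72.3 in the middle, and 13.3 in the advanced group, a log2 ratio of -3.68 (-3.89 to -3.48). Its level was 818 in the 0- to 8-h low-X germ cells and 3.65 in the cells without germline UMIs. Over bins it read 258, 157, 130.1, 103, 82.7, 62.7, 37.2, 17.4, 15.0, and 1.87 CPM, a decline through the whole order. After thinning, 46.0% of early cells had a Jabba UMI (42.0 to 50.04%) and 6.02% of advanced cells (4.30 to 8.17%), with 1.50% among the cells without germline UMIs (0.801 to 2.55%). Unthinned, the shares were 77.0% and 18.9%.

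Sod3, an extracellular superoxide dismutase, followed Jabba, with 63.8, 27.1, and 7.78 CPM from early to advanced, 334 at 0 to 8 h, and 1.47 in the cells without germline UMIs. The kinase gene png, which acts at the start of embryogenesis, was at 18.1 and 2.90 CPM in the early and advanced groups and at 65.8 at 0 to 8 h. This was not the course of the lower genes as a set. Of the 291 lower genes spread over cells, 16.5% were above the early group at 0 to 8 h and below it in the cells without germline UMIs, against 34.3% of all genes compared.

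The larger number of lower genes had more RNA in cells without germline UMIs. Of the 291 lower genes spread over cells, 169, or 58.1%, were higher in the cells without germline UMIs than in the early group, against 27.0% of all genes compared and 28.7% of the 94 higher genes. Idgf4, a chitinase-like growth factor, was at 75.2 and 5.50 CPM in the early and advanced groups and at 256 in those cells. Thor, the brake on translation known as 4E-BP, was at 248 and 35.7 and at 989.6. The Hox gene Abd-B, which marks the posterior gonad, was at 22.6 and 2.72 and at 118. Vig, a RISC-associated RNA-binding protein encoded by vig, was at 262 and 70.6 and at 567, and its relative vig2 was at 1324 and 1589 in the early and advanced groups. Such RNA was not limited to cells without germline UMIs. The low-X germ cells of 0 to 8 h held Idgf4 at 281, Thor at 341, and Abd-B at 93.8 CPM, each above the early group. Of the 291 lower genes spread over cells, 38.8% were above the early group at 0 to 8 h, against 45.0% of all genes compared.

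The whole list of SGP markers moved in the same way. Of 16 markers, 10 could be compared, 7 were at least 2-fold lower and 0 higher, and their median was -1.58. The list summed to 363 CPM in the early, 211 in the middle, and 147 in the advanced group, and to 2193 in the cells without germline UMIs, and no marker was at 0 in all groups. Muscle markers summed to 276, 201, and 143, neuron markers to 84.6, 56.5, and 32.1, glia markers to 49.3, 29.0, and 19.4, hemocyte markers to 114.5, 69.1, and 66.6, and trachea markers to 56.1, 40.0, and 29.5 from early to advanced. Fat body markers were level, at 73.5 and 73.6 in the outer groups, and midgut markers were at 5.78 and 4.20. Epidermis markers summed to 41.5, 51.2, and 1.91 from early to advanced. They were uneven over the bins, with 83.2 CPM in the lowest bin, 3.04 in bin 3, and 87.5 in bin 6. Yolk markers summed to 8.67, 0.398, and 0 CPM, where a count of 0 allows up to 0.185. Cells with at least 3 SGP marker UMIs made up 69.0% (65.3 to 72.6%) of the early, 65.2% of the middle, and 57.4% (53.4 to 61.3%) of the advanced group. With all of them left out, which left 690 of 1910 cells and 4292 genes to compare, 55 genes were higher and 157 lower. The part of RNA or cells of the soma in the lower genes was not tested beyond this.

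**Figure D4:**
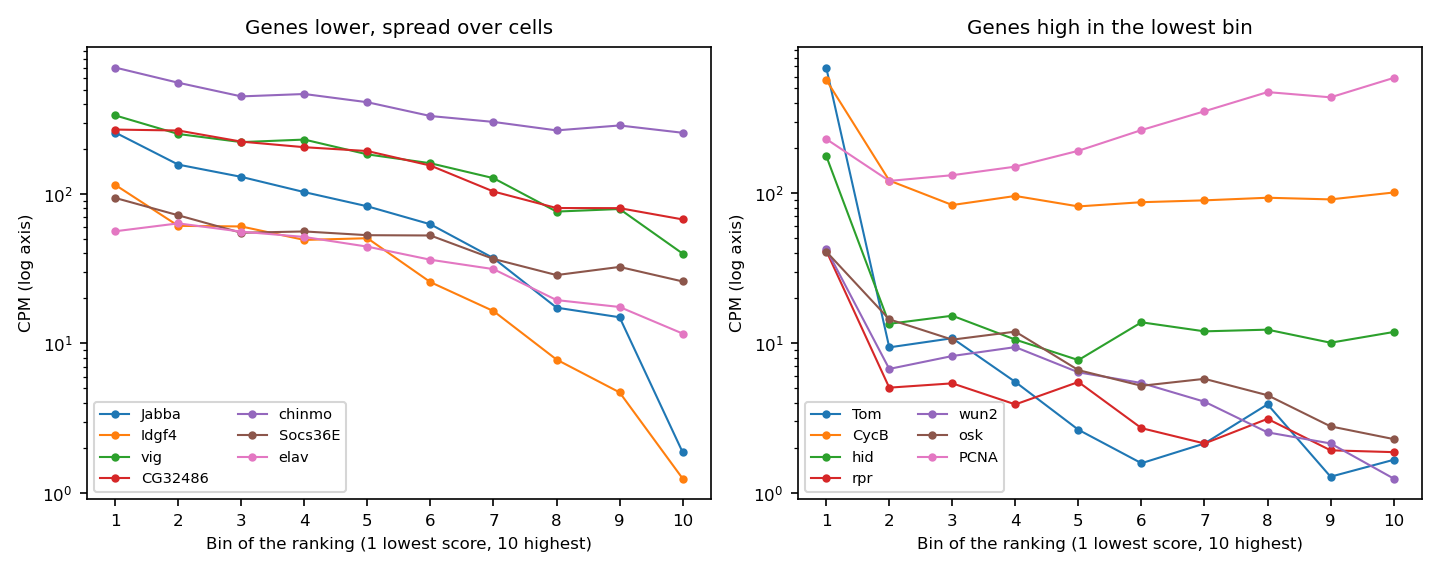
Levels in CPM on a log axis are plotted over the bins of the ranking for lower genes spread over cells (left) and for genes high in the lowest bin (right). Jabba runs from 258 to 1.87 and chinmo from 701 to 257, whereas Tom stands at 689 in the lowest bin and 9.36 in the next.

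The chromatin genes were near the background, whereas the migration and adhesion genes were lower. Of 35 chromatin genes compared, 1 was at least 2-fold higher and 3 lower, near the 1.53% and 6.89% of all genes compared. Their median log2 ratio was 0.17 against -0.09. The higher gene was esc, a Polycomb subunit, at 21.3 and 43.7 CPM in the early and advanced groups, and lower were ph-p, another Polycomb gene, at 22.9 and 5.74, vig, and zld, the activator of the early zygotic genome, at 30.8 and 13.0. Migration and adhesion genes had 7 of 15 lower, against 6.89% of all genes compared, and 0 higher, with a median of -0.65. Among genes turned on at zygotic activation, CG4415 was at 555, 741, and 1015 CPM from early to advanced, a log2 ratio of 0.87 (0.83 to 0.91), while CG32486 was at 248, 166, and 78.7, a ratio of -1.66 (-1.75 to -1.56). These genes, both active after zygotic activation, thus had ratios on opposite sides of 0.

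Female germ cells of the same library, ranked by the same score and cut into groups in the same way, gave values near the background for replication genes. Their scores were not matched to those of the males, 1 library held both, and the difference between the sexes was not tested. The DNA replication list had a median log2 ratio of -0.05 in females against 1.01 in males, and the nucleolar list -0.43 against 0.29. PCNA was at 166 in the early and 130.5 CPM in the advanced group of the females, Phf7 at 40.0 and 56.6, RnrL at 11.2 and 14.8, and piwi at 92.2 and 92.2. The germline genes SkpC and CG15930 had female log2 ratios of 1.15 and 1.13, and RpL37b had 0.87, beside male values of 1.77, 2.10, and 0.96.

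The genes past 2-fold in males were then read in the females. Of the 94 genes higher in males, 87 could be compared in females, where 5 were at least 2-fold higher, 1 was lower, and the median log2 ratio was 0.31. In all, 8 of 6083 genes, or 0.132%, were at least 2-fold higher in females. Of the 291 lower genes spread over cells, 288 could be compared, and 89, or 30.9%, were at least 2-fold lower in females, against 4.22% of all genes, with a median of -0.67. Jabba was at 182 and 58.6 CPM in the early and advanced groups of the females, Idgf4 at 85.3 and 16.6, and chinmo at 801 and 444.

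The multiome library gave nuclear RNA from another preparation, in which 230 low-X germ nuclei of 0 to 20 h were ranked by the same score. The X limit did not part the sexes well there, since 35.9% of germ nuclei had a ratio between 0.15 and 0.18, and the largest nucleus held 20.0%, 18.4%, and 30.2% of the UMIs of the advanced, middle, and early groups. Of the 94 higher genes, 69 had at least 50 UMIs in the outer groups of the nuclei, with a median log2 ratio of 0.88 against 0.08 over the 4940 genes with as many. At least 2-fold higher were 26 of the 69, or 37.7%, against 5.24% of all. Of the lower genes spread over cells, 217 had enough UMIs, with a median of -0.35, and 47, or 21.7%, were at least 2-fold lower, against 4.37%.

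By gene, the nuclei gave Phf7 at 19.1 and 50.2 CPM in the early and advanced groups, a log2 ratio of 1.40 (0.73 to 2.14), PCNA at 133 and 245, RnrS at 32.4 and 88.0, and CG4415 at 104 and 379.9. Jabba was at 161 and 12.6 and spz, the ligand of the Toll receptor, had a log2 ratio of -4.26 in the nuclei and -4.54 in the cells. The direction was not kept by all genes. A nuclear ratio above 0 was found for 65 of the 69 higher genes, for 61 of the 217 lower genes spread over cells, and for 127 of all 323 lower genes with enough UMIs, against 2738 of all 4940 genes. Thus dhd was at 25.7 and 18.5, chinmo at 421 and 479.9, Thor at 297 and 343, and Abd-B at 28.6 and 28.9 in the early and advanced groups of the nuclei. The replication list had a nuclear median of 0.66 over 39 genes and the nucleolar list 0.53 over 31. The lists with low medians in the cells were nearer to 0, with -0.17 for JAK-STAT against -0.59 in the cells, -0.09 for stress against -0.91, and 0.02 for the SGP markers against -1.58.

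**Figure D5:**
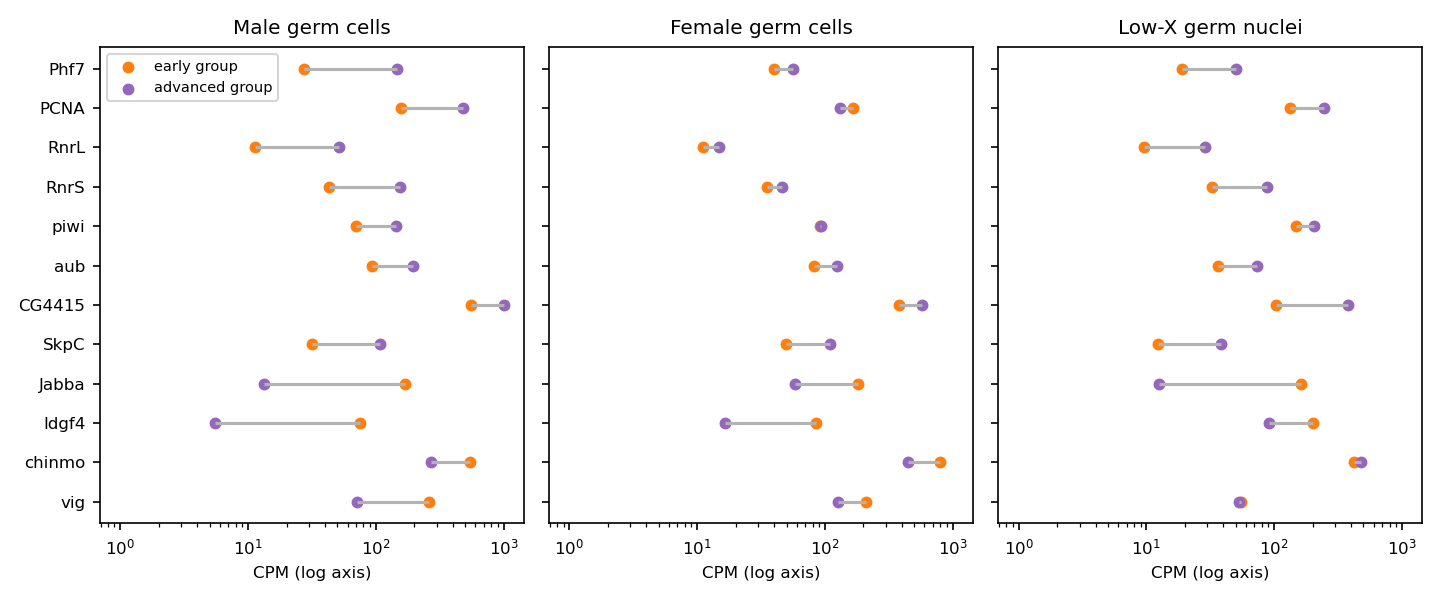
Early (orange) and advanced (purple) groups are plotted in CPM on a log axis for 12 genes in male germ cells, female germ cells, and low-X germ nuclei, each ranked within its own set. PCNA goes from 156 to 484 in male cells, from 166 to 130.5 in female cells, and from 133 to 245 in the nuclei, while Jabba is lower in the advanced group of all sets.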

How the data were processed

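For the 8- to 20-h and 0- to 8-h scRNA-seq libraries the authors deposited UMI counts per gene and cell, and for the multiome library UMI counts per gene and nucleus. The submitters' processing notes name Cell Ranger 6.1.2, Cell Ranger ARC 1.0.0, and Signac, and the paper names BDGP6.28.102. The unit throughout was raw counts, and those of the 8- to 20-h matrix and the aggregated matrix differed by 0 UMIs. No barcode was shared between libraries, and 13884 of 13947 genes had a position in the annotation used here, which served for X linkage. Doublets were marked but kept.

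UMIs were summed over the cells of a group and divided by their total. Genes needed 200 UMIs in both outer groups together, and the 12 ranking and selection genes were left out of every count. Ratios had exact conditional 95% intervals (Clopper-Pearson). Their code was checked on simulated counts with counting error alone, which lack the differences between cells of the real data. Cells without any UMI of the 9 germline genes numbered 4773, with a median of 2161 UMIs. Thinning drew 5000 UMIs per cell, and 5, 5, and 23 cells of the advanced, middle, and early groups held fewer and were left out of it. For counts of genes and list medians the thinned cells were scored and ranked anew, whereas thinned shares of cells kept the groups. Computation used Python 3.11.15 with numpy 2.4.6, scipy 1.17.1, pandas 2.3.3, scanpy 1.11.5 (Scrublet), and matplotlib 3.10.9.

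The members, the gene lists, and the rule for named genes were chosen with earlier results of these data known. The rule took the ranking and selection genes, the germline ribosomal copies with their partners, genes the study names for germ cells, the 20 largest ratios in each direction, and up to 6 genes of each list. The genes of the printed sequences, dup, CG15930, png, rpr, and other genes in the lists' text were named after their values were seen.

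Alternatives covered the ranking gene, depth, doublets, SGP-marked cells, limits on cells and genes, and scale. Leaving out the lowest bin, the 10 highest cells of each gene, or cells under 5000 UMIs was chosen after seeing the data.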

Additional observations from a re-analysis of the deposited data

Results flagged for a closer look

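The initiation factor dup had opposite values in the sexes. In male germ cells it stood at 27.8 CPM in the early and 81.5 in the advanced group, a log2 ratio of 1.55, whereas in female germ cells it stood at 31.5 and 15.7, a log2 ratio of -1.00. Each sex was 1 group of cells in 1 library, and the difference was not tested.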

How the results depend on the processing

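Genes at least 2-fold higher numbered 94 with all settings as described. Ranking by RpS19b, RpL22-like, or RpS10a alone gave 50, 51, and 44, of which 49, 50, and 43 were among the 94, thinning to 5000 UMIs gave 18 (18 shared), leaving out cells with SGP marker UMIs 55 (49 shared), and a minimum of 1000 UMIs per gene 55 (55 shared). Lower genes numbered 424. Thinning gave 85 (82 shared), leaving out the SGP-marked cells 157 (125 shared), a minimum of 50 UMIs 855 (424 shared), a minimum of 1000 UMIs 127 (127 shared), and leaving out the lowest bin of cells 281 (272 shared). The number of genes compared also changed, so that these counts are not on the same base. It was 6157 as described, 3550 after thinning, and 4292 without the SGP-marked cells. With a minimum of 50 or 1000 UMIs it was 7362 or 3417, and without the lowest bin 6006. The cause of the differences was not tested. The DNA replication median of 1.01 became 0.77, 0.81, and 0.82 under the single rankings and 0.68 after thinning. The nucleolar median of 0.29 became 0.19 under RpS19b alone. The ribosomal protein median of 0.06 became 0.024 under RpS10a alone, 0.090 as a mean over cells, 0.15 centred on the median gene, 0.10 per UMIs outside ribosomal protein genes, 0.079 between the outer 20% of cells at each end, and 0.024 without the lowest bin. The depth ratio of the outer groups, 1.19, became 1.12 and 1.10 under RpL22-like and RpS10a alone. ImpL1 reversed, from -4.91 to 0.21, once the 10 highest cells were left out. Of 6520 values of single genes under alternatives, 5171 moved by less than their interval, 1348 by more, and 1 reversed. The 5171 include values that could not move. The aggregated matrix holds the same counts, and the minimums of 50 and 1000 UMIs only choose genes. The 5171 are therefore no measure of robustness. No paired analysis was possible because all groups were cells of 1 library. Depth limits genes under 200 UMIs, which were not compared.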
